A study of Mus musculus with 15 samples.

Results

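Livers of mice that had eaten an atherogenic and high-fat (Ath+HF) diet with 3% branched-chain amino acids (BCAA) were compared between 68w and 38w of age. The comparison used the 6 arrays labelled Ath+HF+BCAA, 3 at 68w and 3 at 38w, of the 15 arrays in the series, across all 19938 genes that the array names by a single symbol. All mice were male C57BL/6J, were given their diets from week 8 and were killed after 30 or 60 weeks on them, with no transgene and no drug. The 3 Ath+HF arrays at 38w and the 3 at 68w, from mice on the same diet without the supplement, served to show where the supplemented label changed differently, and the 3 arrays of basal diet at 38w shared the estimate of spread. Whether every array came from its own mouse is not stated, and the error given here is therefore the array-to-array spread, part of which may be technical. The design confounds age with time on the diet and with any difference in handling between the 38w and 68w arrays, and these cannot be told apart. Labels were kept as deposited throughout, but an exchange at 68w between the label with BCAA and the label without is possible. No gene measured here marks the diet eaten, so the labels could not be checked against such a marker. The values that an exchange would give are therefore set out at the end.

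Leucine, isoleucine and valine are essential amino acids. Leucine acts through the Rag GTPases, which bring the growth kinase complex mTORC1 to the lysosome. The carbon skeletons of all 3 amino acids are oxidized in mitochondria after transamination and decarboxylation. BCAA are given as a supplement in chronic liver disease, where their blood level falls. The Ath+HF diet is a model of steatohepatitis, in which fat loaded hepatocytes are joined by macrophages, activated stellate cells that lay down collagen and, late, tumors.

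Levels are log2 values from the authors' robust multi-array average (RMA), and every change below is the 68w mean minus the 38w mean of the Ath+HF+BCAA label on that log2 scale, where 1 unit is 2-fold, with its standard error (SE). Genes were called at a Benjamini-Hochberg adjusted p under 0.05 from 1 limma fit over all genes and all 15 arrays. Array medians lay between 6.91 and 7.16. Replicate arrays correlated over genes at 0.984 to 0.991 at 38w and at 0.994 to 0.995 at 68w, against 0.956 to 0.971 between the ages, and replicate 3 at 38w stood apart from the other 2, with lower or higher levels of several lipid genes given below. Hepatocyte markers marked every array as liver: the mean level of 9 measured markers was 13.43 to 13.56 at 38w and 13.46 to 13.52 at 68w, and albumin (Alb) read 14.07, 14.12 and 14.03 at 38w and 13.98, 14.06 and 13.95 at 68w. The mean of 7 macrophage markers was 10.19 to 10.72 at 38w and 10.81 to 11.21 at 68w, and that of 4 cholangiocyte markers 7.255 to 7.473 and 8.092 to 8.17. In whole tissue, fewer cells of a type and less RNA per cell cannot be told apart.

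At 68w, 4081 genes were higher than at 38w, 20.5% of the genes tested, and 3654 were lower, 18.3%. The 3 arrays of one age lay wholly above the 3 of the other for 5617 genes in the higher direction (28.2%) and for 4845 in the lower direction (24.3%). The median change of all genes was 0.03. Among called genes, 374 rose and 452 fell by more than 2-fold, and 28 rose and 52 fell by more than 4-fold. With equal array medians the median change shifted by -0.15 and the split of calls from 4081 higher and 3654 lower to 2272 higher and 5659 lower, while quantile normalization shifted it by -0.03 and gave 3153 higher and 3433 lower. Counts of small changes therefore depend on the scaling, and the account below gives most room to gene groups with large shifts. The plot of the leading genes shows each array.

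The change of the Ath+HF+BCAA label was also tested against that of the Ath+HF label in the same fit, as the difference of the 2 changes. It was more upward with the supplement for 2572 genes, 12.9% of those tested, and more downward for 1530, 7.67%, and the median difference over all genes was -0.05.

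**Figure D1:**
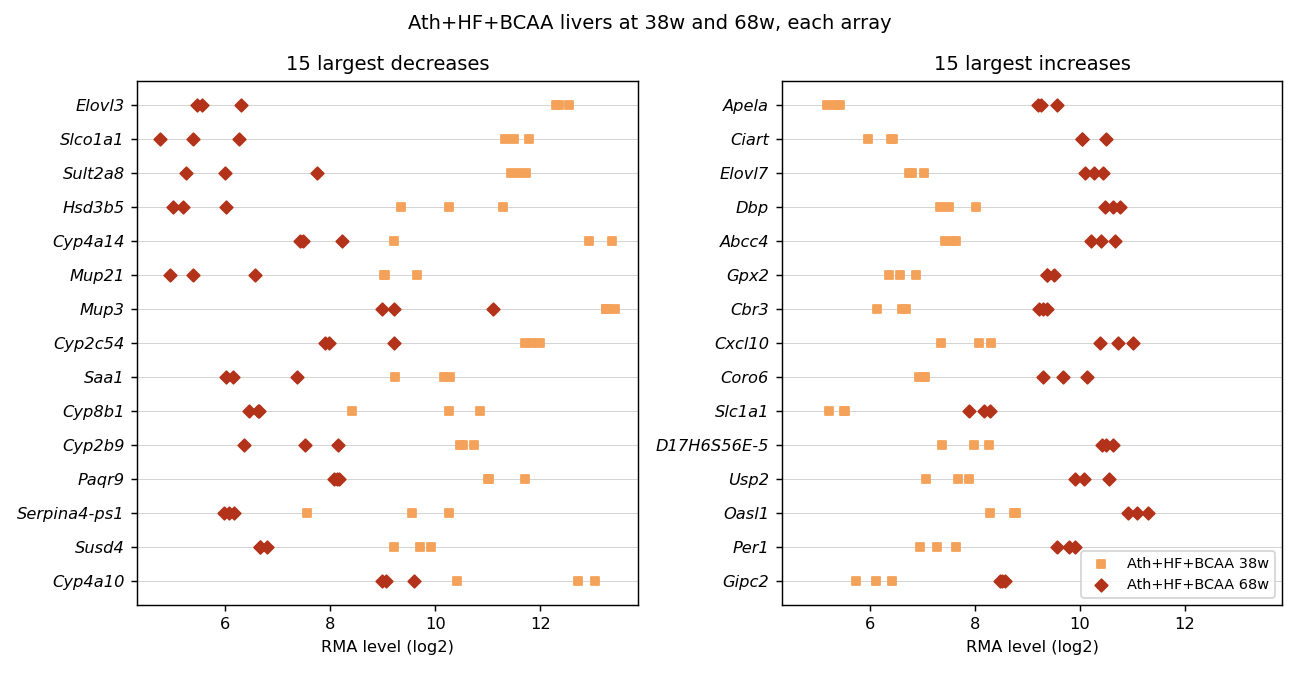
Level of the 15 genes with the largest decrease (left panel) and the 15 with the largest increase (right panel) from 38w to 68w in the Ath+HF+BCAA label, leaving out predicted and small RNA genes; the x axis is the RMA level (log2), orange squares are the 3 arrays at 38w and red diamonds the 3 arrays at 68w. Elovl3 moved from 12.30, 12.55 and 12.36 to 5.47, 5.56 and 6.29, and no gene shown has overlapping arrays, as the choice of the genes required.

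Several of the largest falls, led by Elovl3 and Slco1a1, were in genes that male livers express more than female livers. In males, pulses of growth hormone activate STAT5b in hepatocytes, which maintains this program. Of 18 measured male-biased genes, 16 fell and none rose, with a median change of -1.45, against 0.03 for all genes. Elovl3, which elongates very long chain saturated fatty acids, read 12.30, 12.55 and 12.36 at 38w and 5.47, 5.56 and 6.29 at 68w (change -6.63, SE 0.17, adjusted p = 1.3e-12). Slco1a1, a hepatocyte uptake transporter for organic anions, read 11.33, 11.49 and 11.79 at 38w and 4.76, 5.39 and 6.27 at 68w (change -6.06, SE 0.31, adjusted p = 6.7e-09). Both genes were low in each of the 3 arrays at 68w, and highest there in replicate 3.

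Hsd3b5, a steroid reductase of the male liver, read 10.27, 9.35 and 11.28 at 38w and 5.19, 5 and 6.02 at 68w (change -4.90, SE 0.64, adjusted p = 3.2e-05). Mup3, a major urinary protein that carries pheromones, read 13.25, 13.43 and 13.26 at 38w and 9.21, 8.99 and 11.1 at 68w (change -3.55, SE 0.35). Mup21 changed by -3.61. Mup genes are near-identical copies, so their probes may read several of them. Cyp7b1, the oxysterol hydroxylase of the alternative bile acid pathway, read 11.96, 11.89 and 11.52 at 38w and 9.21, 9.32 and 9.88 at 68w (change -2.32). For these genes too the 38w and 68w arrays did not overlap, as the choice of Hsd3b5, Mup3 and Mup21 required. The growth hormone receptor Ghr changed by -0.64 and its downstream target Igf1 by -0.40, both called. The epidermal growth factor receptor Egfr changed by -1.45. Stat5b itself differed by -0.22 and the feedback inhibitor Socs2 by -0.69, neither of them called. Female-biased genes did not move the opposite way as a group. Of 11 measured, 7 fell and 1 rose, with a median of -0.71, and the one that rose was the flavin monooxygenase Fmo2 (1.44). Cyp2b9 (-3.24) and Cyp17a1 (-1.99) were among those that fell. In the Ath+HF label the median change from 38w to 68w was -0.16 for the male-biased list, and by the test of the difference 11 of its 18 genes moved more downward with the supplement and none more upward.

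**Figure D2:**
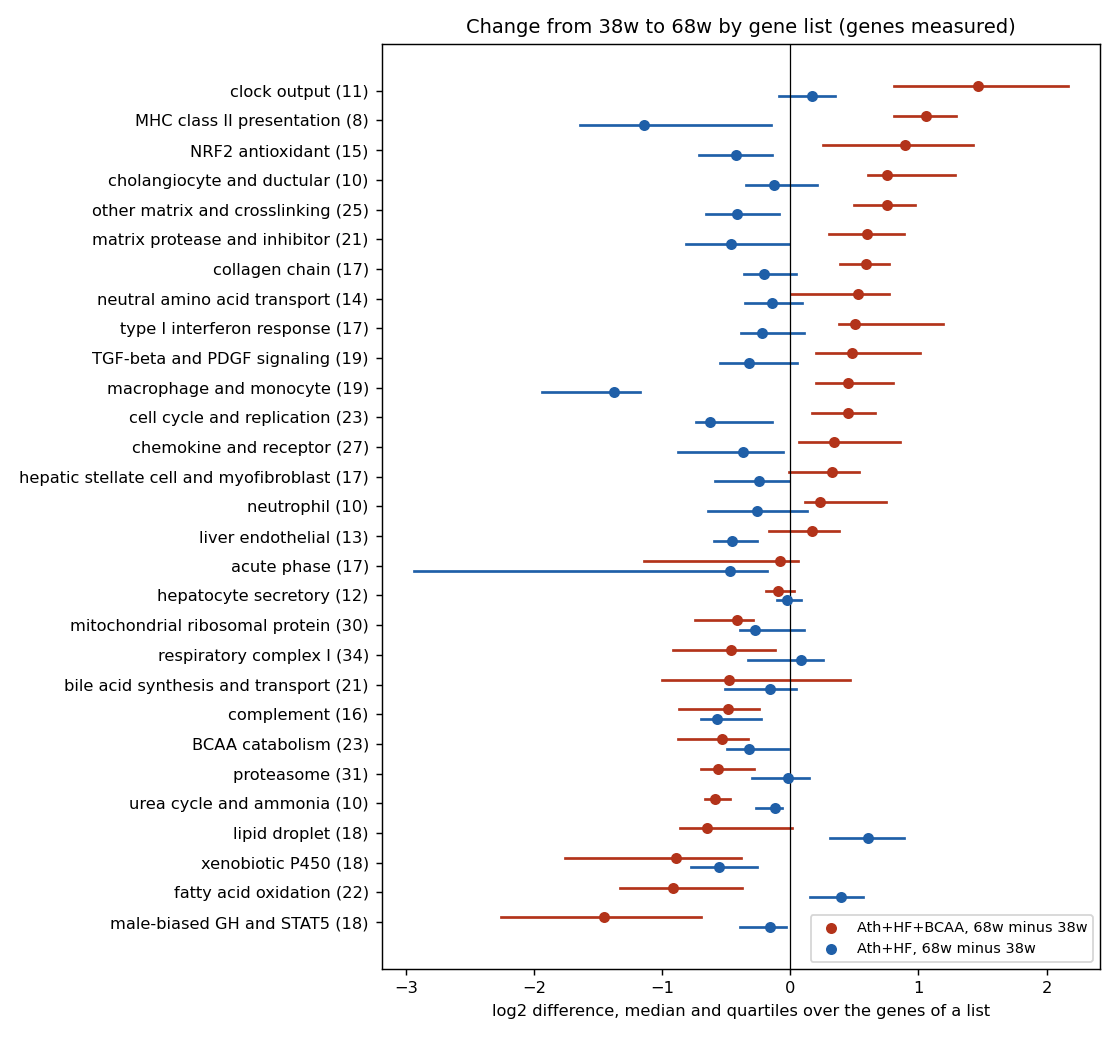
Change from 38w to 68w in 29 gene lists; the x axis is the log2 difference, each point is the median over the list's measured genes and each line spans its quartiles over genes, in red for the Ath+HF+BCAA label and in blue for the Ath+HF label. In red, the male-biased list lies lowest at -1.45 and the clock output list highest at 1.46; the lines show spread over genes and not the error of the median.

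Bile acid genes split by role. Of 21 measured genes for synthesis and transport, 11 fell and 6 rose (median -0.48). Cyp7a1, the rate-limiting enzyme of bile acid synthesis, read 10.44, 9.48 and 10.1 at 38w and 10.07, 10.21 and 10.48 at 68w, a difference of 0.25 that was not called (adjusted p = 0.83). Cyp8b1, which makes the precursor of cholic acid, read 10.26, 10.85 and 8.42 at 38w and 6.46, 6.64 and 6.62 at 68w (change -3.27, SE 0.46, adjusted p = 5.8e-05). Replicate 3 was the lowest of the 38w arrays, and without it the change was -3.99. The main importer and the main export pump for bile salts fell. Slc10a1, the sodium-dependent bile acid importer, read 12.75, 12.8 and 12.51 at 38w and 10.54, 10.3 and 11.68 at 68w (change -1.85), and Abcb11, the bile salt export pump, changed by -0.86, as did the bile acid receptor Nr1h4 by -0.95. Members of the Abcc family of exporters rose. Abcc4, which pumps bile acids and nucleotides across the basolateral membrane, read 7.43, 7.59 and 7.65 at 38w and 10.68, 10.41 and 10.21 at 68w (change 2.87, SE 0.14, adjusted p = 4.8e-09). Abcc3, another basolateral exporter, rose by 0.68, and Abcc2, which exports into bile, by 0.66.

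Most fatty acid oxidation genes fell. Of 22 measured oxidation genes, 19 fell and none rose (median -0.92). Cyp4a14, an omega-hydroxylase of fatty acids induced by PPAR-alpha, read 12.92, 13.36 and 9.22 at 38w and 7.42, 7.48 and 8.23 at 68w (change -4.12, SE 0.69, adjusted p = 0.00025). Its near copy Cyp4a10 read 12.72, 13.05 and 10.42 at 38w and 8.98, 9.07 and 9.6 at 68w (change -2.85). In both genes replicate 3 at 38w was far below the other 2 and still above all 68w arrays, and without it the changes were -5.43 and -3.67. Acadvl, which starts the oxidation of very long chain fatty acids, read 10.69, 10.8 and 10.78 at 38w and 9.33, 9.35 and 9.66 at 68w (change -1.31, adjusted p = 3e-07). The carnitine carrier Slc25a20 (-1.35), the electron carrier oxidoreductase Etfdh (-1.27) and the isomerase Eci1 (-1.33) fell to a like extent. Cpt1a, the entry step into mitochondria, fell by 0.32, a call that was lost without any one of 4 arrays, and the regulator Ppara differed by -0.20 and was not called.

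Of 18 lipid droplet genes, 9 fell and 1 rose (median -0.65). Mgll, which cleaves monoglycerides, read 10.23, 10.5 and 9.87 at 38w and 7.98, 8.17 and 8.66 at 68w (change -1.93, SE 0.18, adjusted p = 1.5e-06). The droplet proteins Fitm1 (-1.59), Cidec (-1.06) and Plin2 (-0.62) fell too, of which Cidec lost its call when single arrays were left out. The same lists moved up in the Ath+HF label, with a median of 0.39 for oxidation and 0.60 for droplets, and the change differed between the diets for 19 of 22 and 10 of 18 genes, all lower with the supplement. Fatty acid synthesis showed no common direction, with 3 genes higher and 4 lower of 19, and its median of -0.13 turned to 0.11 without replicate 3 at 38w. Elovl5, an elongase of polyunsaturated fatty acids, read 12.68, 13.01 and 12.88 at 38w and 11.24, 11.25 and 11.4 at 68w (change -1.56), the desaturase Scd2 rose by 1.19, and Scd1, the main desaturase of liver, differed by 0.08 and was not called. The synthase Fasn and its regulator Srebf1 were not called over all arrays, where replicate 3 was the highest of the 38w arrays, and without it they were higher at 68w by 0.93 and 1.28. Over all arrays Srebf1 differed by 0.67, and by 0.29 without replicate 2 at 38w. Of 20 cholesterol genes 6 fell, among them the sterol isomerase Ebp (-1.56), and 3 rose, or 1 without replicate 2 at 38w or replicate 3 at 68w and none with equal array medians.

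Other hepatocyte functions differed by list. Of 12 hepatocyte secretory genes 2 fell and none rose (median -0.10), and of 15 hepatocyte transcription factors 4 fell and 2 rose (median -0.20), while the P450, complement and urea cycle lists were mostly lower. Of 18 measured xenobiotic P450 genes, 13 fell and 1 rose (median -0.89). Cyp2c54, a drug and fatty acid oxidizing P450, read 12, 11.71 and 11.85 at 38w and 7.97, 7.9 and 9.22 at 68w (change -3.49), and its relative Cyp2c37 changed by -2.80. Cyp1a2, which oxidizes aromatic amines, was the gene that rose, by 0.71. Of 16 complement genes, 12 fell and none rose (median -0.49), led by the terminal components C8b (-1.69) and C8a (-1.53) and the mannose-binding lectin Mbl1 (-1.52). G6pc, which releases free glucose, changed by -2.17. Of 10 genes for the urea cycle and ammonia, 9 fell (median -0.59). Oat, ornithine aminotransferase, read 12.95, 13.05 and 12.57 at 38w and 11.34, 10.89 and 11.62 at 68w (change -1.57), Otc fell by 0.81, and Cps1, the entry enzyme of the cycle, differed by -0.04 and was not called.

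The enzymes that degrade the supplemented amino acids were lower at 68w. Of 23 measured BCAA catabolism genes, 19 fell and none rose, with a median of -0.53. Auh, a hydratase of the leucine branch, read 9.9, 9.97 and 9.94 at 38w and 8.32, 8.33 and 8.66 at 68w (change -1.50, SE 0.12, adjusted p = 3.2e-07). Acadsb, the dehydrogenase of the isoleucine branch, fell by 1.25, Pccb, of propionyl-CoA carboxylase, by 1.01 and Ppm1k, the phosphatase that activates the ketoacid dehydrogenase, by 1.12. Genes of the first steps did not move alike. Bckdha, of the ketoacid dehydrogenase itself, read 10.13, 10.18 and 10 at 38w and 9.68, 9.53 and 9.79 at 68w (change -0.44), and the shared subunit Dld fell by 0.88. The transaminase Bcat2 read 8.58, 8.75 and 8.56 at 38w and 8.74, 8.81 and 8.84 at 68w, a difference of 0.17 that was not called. The list's median in the Ath+HF label was -0.32, and by the test of the difference 9 genes moved more downward and 1 more upward with the supplement.

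Mitochondrial and protein turnover genes fell in small steps over many members. Of 30 mitochondrial ribosomal proteins 23 fell and 2 rose (median -0.42), of 34 complex I subunits 22 fell and 1 rose (-0.46), and of 37 genes of complexes II to V 22 fell and 2 rose (-0.39). The largest falls shown here were in Ndufa1 (-1.70), Ndufa4 (-1.25), Cox6a1 (-1.36) and Cox7a2 (-1.29), small respiratory chain subunits, while Atp5g2, of the ATP synthase ring, rose by 0.76. Of 31 proteasome subunits 23 fell and 1 rose (median -0.57), with Psma3 at -1.20 and Psmd14 at -1.14, and Psmb3 rising by 0.42. Cytosolic ribosomal proteins showed no such shift, with 8 higher and 8 lower of 33 and a median of -0.02. Of 13 heat shock genes 8 fell and 2 rose, the falls including the chaperone partners Dnaja1 (-1.09) and Hsph1 (-1.08) and the increases the small heat shock protein Cryab (1.05). Complex I and the proteasome were nearly flat in the Ath+HF label, with medians of 0.08 and -0.02.

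The clock output list had the highest median of the 57 lists. In the liver clock, ARNTL (BMAL1) and CLOCK bind E-boxes and switch on the Per and Cry repressors and the D-box factor DBP, REV-ERB and ROR proteins act on ROR elements in Arntl and Nfil3, and NFIL3 opposes DBP at D-boxes, so that the genes of each arm peak at different hours. The promoters shown are of clock genes chosen because they carry these elements, and not as the largest changes. Each spans 250 bases before to 50 after the start site, taken from RefSeq on GRCm38.p6 and written 5′ to 3′ on the gene's strand. Capitals mark matches, searched on both strands, to the E-box CACGTG in Ciart and Per1, the D-box TTATGTAA in Per3 and the ROR element ANTAGGTCA in Arntl and Nfil3.
Ciart, chr3:95882179-95882478, minus strand: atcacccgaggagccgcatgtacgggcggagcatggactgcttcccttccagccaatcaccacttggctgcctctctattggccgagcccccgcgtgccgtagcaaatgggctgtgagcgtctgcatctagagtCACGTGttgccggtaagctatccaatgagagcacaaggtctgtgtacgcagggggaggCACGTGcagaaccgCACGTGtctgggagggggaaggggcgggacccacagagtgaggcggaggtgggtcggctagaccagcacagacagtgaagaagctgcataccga
Per1, chr11:69098699-69098998, plus strand: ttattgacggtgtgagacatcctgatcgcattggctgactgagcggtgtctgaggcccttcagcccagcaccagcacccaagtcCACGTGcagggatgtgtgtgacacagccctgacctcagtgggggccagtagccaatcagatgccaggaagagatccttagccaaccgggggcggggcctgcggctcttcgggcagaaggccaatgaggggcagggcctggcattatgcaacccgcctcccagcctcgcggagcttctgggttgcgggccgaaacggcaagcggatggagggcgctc
Per3, chr4:151044616-151044915, minus strand: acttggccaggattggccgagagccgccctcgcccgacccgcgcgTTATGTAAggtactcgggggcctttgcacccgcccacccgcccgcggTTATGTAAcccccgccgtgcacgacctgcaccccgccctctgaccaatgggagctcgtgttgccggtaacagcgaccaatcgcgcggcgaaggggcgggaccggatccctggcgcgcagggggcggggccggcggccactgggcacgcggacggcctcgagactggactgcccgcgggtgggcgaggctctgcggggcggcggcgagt
Arntl, chr7:113207261-113207560, plus strand: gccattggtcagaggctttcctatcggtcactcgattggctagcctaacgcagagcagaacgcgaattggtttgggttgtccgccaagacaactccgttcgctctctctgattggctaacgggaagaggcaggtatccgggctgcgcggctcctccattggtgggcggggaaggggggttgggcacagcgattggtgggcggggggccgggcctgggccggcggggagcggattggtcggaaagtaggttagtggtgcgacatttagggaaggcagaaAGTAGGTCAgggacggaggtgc
Nfil3, chr13:52980990-52981289, minus strand: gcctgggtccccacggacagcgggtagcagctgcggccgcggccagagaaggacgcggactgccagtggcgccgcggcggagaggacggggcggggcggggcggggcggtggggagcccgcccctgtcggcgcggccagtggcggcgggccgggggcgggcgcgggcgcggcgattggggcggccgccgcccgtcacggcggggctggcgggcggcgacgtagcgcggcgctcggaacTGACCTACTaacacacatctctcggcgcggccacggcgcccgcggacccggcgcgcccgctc
The E-box stood in 8.09% of the 27025 gene promoters in the table, in 3 of 10 core clock promoters and in 3 of 9 clock output promoters. The D-box stood in 1.11% of all promoters, in 1 of 10 core clock promoters (Per3) and in 0 of 9 clock output promoters. The ROR element stood in 0.707% of all promoters, in 1 of 10 core clock promoters (Arntl) and in 1 of 9 clock output promoters (Nfil3). A match is a description of the letters and not evidence of binding.

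The arms moved in opposite directions. Arntl, the positive factor, read 9.05, 9.46 and 9.05 at 38w and 6.69, 6.98 and 6.87 at 68w (change -2.34, SE 0.16, adjusted p = 6.9e-08). Its partner Clock read 10.21, 10.29 and 10.16 at 38w and 9.01, 8.87 and 9.03 at 68w (change -1.25), and Nfil3 read 8.64, 8.96 and 8.57 and then 7.14, 6.99 and 7.02 (change -1.67). All 3 genes were thus lower in every 68w array. Ciart, a repressor of CLOCK and ARNTL, read 6.45, 6.4 and 5.97 at 38w and 10.05, 10.05 and 10.51 at 68w (change 3.93, SE 0.21, adjusted p = 8.7e-09). Dbp read 8.03, 7.52 and 7.35 at 38w and 10.48, 10.64 and 10.76 at 68w (change 2.99, SE 0.16, adjusted p = 8.3e-09). Per1, Per2 and Per3, the period repressors, rose by 2.46, 1.98 and 2.23. Their arrays did not overlap either, as the choice of Per1 required. Usp2, a deubiquitinase under clock control, rose by 2.64, and Tef (1.37), Bhlhe40 (1.64), Wee1 (1.69) and Noct (1.46) rose with it.

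Other core genes moved little: Cry1 fell by 0.66, Cry2 rose by 0.45, and Nr1d1, the gene of REV-ERB-alpha, differed by 0.87 without passing the test (adjusted p = 0.10). In counts, 5 core clock genes of 11 rose and 3 fell (median 0.70), and 9 clock output genes of 11 rose and 1 fell (median 1.46), with Ciart on both lists. In the Ath+HF label the differences between 68w and 38w were 1.05 for Per1, 0.61 for Per2, 0.38 for Per3, 0.55 for Dbp and 0.19 for Ciart. The sources used here give a light and dark cycle but no hour of killing, and the part of that hour in these values was not tested. Immediate early genes, which respond within minutes to stress and handling, rose in 6 of 13 cases with none lower (median 0.65; 0.25 in the Ath+HF label).

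**Figure D3:**
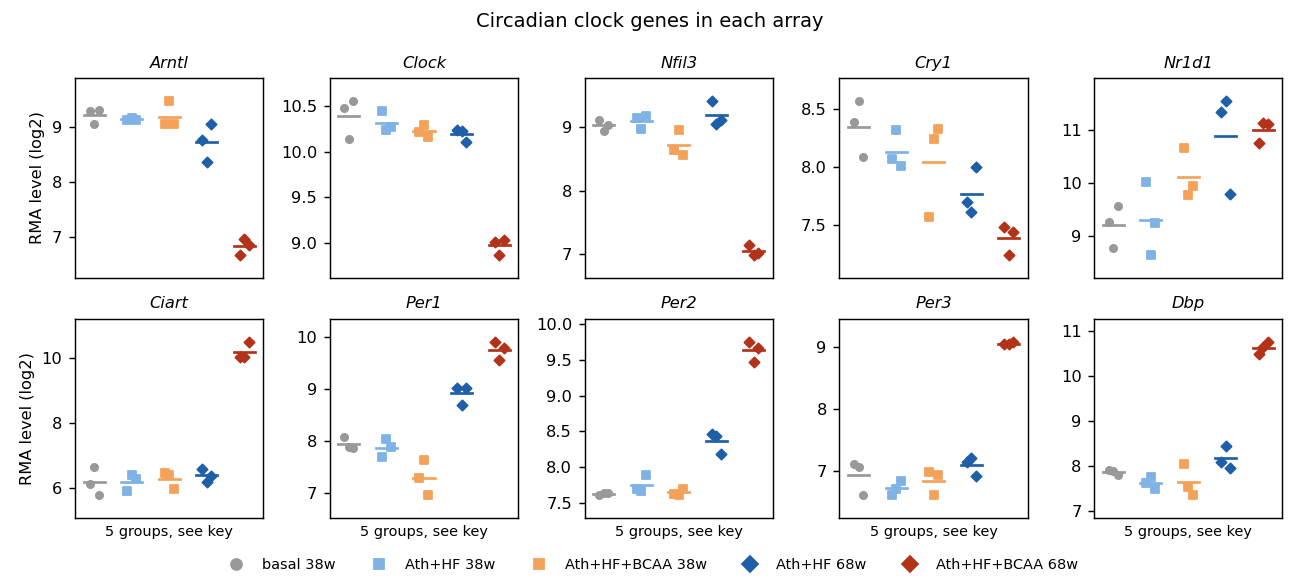
Level of 10 clock genes in all 5 groups; the y axis is the RMA level (log2), each point is an array and each line a group mean, coloured by group. Arntl, Clock and Nfil3 are lowest, and Ciart, Per1, Per2, Per3 and Dbp highest, in the Ath+HF+BCAA arrays at 68w.

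Among the leading increases were targets of NRF2, the factor that induces antioxidant and conjugating enzymes. Of 15 measured targets 11 rose and none fell (median 0.90, against -0.43 in the Ath+HF label). Cbr3, a carbonyl reductase, read 6.14, 6.62 and 6.69 at 38w and 9.37, 9.3 and 9.22 at 68w (change 2.81, SE 0.14, adjusted p = 5.7e-09). Gpx2, a glutathione peroxidase, read 6.88, 6.37 and 6.57 at 38w and 9.37, 9.52 and 9.37 at 68w (change 2.81, SE 0.22, adjusted p = 3.5e-07). Every 68w array lay more than 2 units above every 38w array for both genes. The quinone reductase Nqo1 rose by 1.99, sulfiredoxin Srxn1 by 1.43, the glutathione transferases Gstm3, Gsta4 and Gstm1 by 2.32, 1.42 and 1.03, the rate-limiting glutathione enzyme Gclc by 0.90 and the cystine carrier Slc7a11 by 1.14. Txnrd1, Gstp1, Me1 and Osgin1 were not called.

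Further leading increases had no common list. Apela, a peptide hormone of the apelin receptor, read 5.18, 5.35 and 5.43 at 38w and 9.2, 9.27 and 9.56 at 68w (change 4.02, SE 0.26, adjusted p = 5.5e-08), against a difference of 0.23 in the Ath+HF label. Elovl7, a fatty acid elongase, read 7.03, 6.75 and 6.8 at 38w and 10.44, 10.11 and 10.28 at 68w (change 3.42, SE 0.20). Slc1a1, a glutamate transporter, read 5.52, 5.54 and 5.22 at 38w and 7.9, 8.18 and 8.3 at 68w (change 2.70). None of these genes had overlapping arrays, as the choice of the leading genes required. The actin-binding Coro6 (2.70), D17H6S56E-5 (2.65) and Gipc2 (2.43) followed. Among the decreases, the sulfotransferase Sult2a8 read 11.59, 11.72 and 11.44 at 38w and 5.25, 6 and 7.74 at 68w (change -5.26), and Paqr9, a membrane receptor of the progestin and adiponectin receptor family, read 11, 11.7 and 11.03 and then 8.07, 8.16 and 8.13 (change -3.12). Serpina4-ps1 (-3.06) and the complement regulator Susd4 (-2.90) completed the leading falls not yet named.

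Macrophage genes were higher at 68w in part. Of 19 measured, 11 rose and none fell (median 0.45), and without replicate 2 at 68w 7 rose. Cd68, a lysosomal glycoprotein of macrophages, read 10.07, 9.74 and 10.31 at 38w and 11.14, 11.33 and 11.19 at 68w (change 1.18, adjusted p = 7e-06). Cybb, the catalytic subunit of the phagocyte oxidase, read 11.57, 10.99 and 11.57 at 38w and 12.18, 12.37 and 12.19 at 68w (change 0.87). Laptm5 (1.21) and C1qb (1.08) rose too. Ctss, a cathepsin of antigen-presenting cells, read 10.52, 10.09 and 10.85 at 38w and 10.36, 10.67 and 10.39 at 68w, and Adgre1, the F4/80 antigen, differed by 0.26, neither of them called. The list's median in the Ath+HF label was -1.38, and the change differed between the diets for 18 of 19 genes upward and for 1 downward.

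Genes of lipid-associated macrophages, which surround dying fat-laden hepatocytes, rose in 6 cases of 13 and fell in 1 (median 0.56), among them the lipid receptor Trem2 (1.01), Itgax (0.99) and galectin-3 Lgals3 (0.90). Gpnmb, a glycoprotein of these cells, read 11, 10.21 and 11.14 at 38w and 11.8, 11.58 and 11.45 at 68w (change 0.83, SE 0.27, adjusted p = 0.022), a call lost with equal array medians or without any one of 3 arrays, and the elastase Mmp12 differed by 0.36 and was not called. Of 9 resident Kupffer cell genes, 4 rose and none fell, led by Vsig4 (0.77), while Clec4f, their defining lectin, differed by -0.23 and was not called. The median of 0.22 turned to -0.10 without replicate 2 at 68w, and with equal array medians 2 rose.

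MHC class II genes, which present antigen to helper T cells, rose in all 8 measured cases (median 1.06). The invariant chain Cd74 read 11.24, 10.36 and 11.37 at 38w and 12.3, 12.68 and 12.42 at 68w (change 1.48), and H2-DMa (1.52), H2-Aa (1.23) and the transactivator Ciita (1.07) rose with it. Replicate 2 was the lowest 38w array for Cd74, Cd68 and Cybb alike. The range of the macrophage marker mean given above rose over the same arrays, and its part in the class II values was not tested. T and NK cell genes moved in 4 cases of 16, 3 of them upward, or 1 upward with equal array medians or quantile normalization, and their median of 0.17 turned to -0.04 without replicate 2 at 68w. B and plasma cell genes rose in 3 of 9, and neutrophil genes in 1 of 10, with a median of 0.23 that turned to -0.10 without replicate 2 at 68w.

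Interferon response genes rose in 11 of 17 cases with none lower (median 0.51, against -0.22 in the Ath+HF label). The promoter of Rsad2 is shown as an example of the interferon-stimulated response element GAAANNGAAA, marked in capitals, which stood in 3.99% of all promoters in the table.
Rsad2, chr12:26456403-26456702, minus strand: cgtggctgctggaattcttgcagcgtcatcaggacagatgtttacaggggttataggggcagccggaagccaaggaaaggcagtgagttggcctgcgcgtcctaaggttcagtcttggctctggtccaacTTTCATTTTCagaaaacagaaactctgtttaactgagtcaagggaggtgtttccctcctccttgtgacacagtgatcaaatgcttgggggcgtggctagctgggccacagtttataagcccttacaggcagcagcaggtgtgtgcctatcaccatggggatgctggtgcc
Rsad2, which encodes the antiviral protein viperin, read 9.05, 9.08 and 9.16 at 38w and 10.44, 10.78 and 10.96 at 68w (change 1.63, adjusted p = 1.1e-05). Oasl1, an oligoadenylate synthetase-like protein, read 8.79, 8.3 and 8.75 at 38w and 11.1, 10.92 and 11.31 at 68w (change 2.50, SE 0.14, adjusted p = 1.4e-08). Oasl2 (1.35) and the regulator Irf7 (0.84) rose, and Usp18 was not called. Every 68w array was above every 38w array for Rsad2 and Oasl1, as the choice of Oasl1 required.

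Of 27 chemokines and receptors, 12 rose and none fell (median 0.34). Cxcl10, which draws T cells, read 8.32, 7.36 and 8.09 at 38w and 10.73, 10.39 and 11.02 at 68w (change 2.79, SE 0.27, adjusted p = 2.3e-06). The monocyte attractant Ccl2 rose by 1.88, Ccl5 by 1.53, and Cxcl16 and the receptor Cxcr4 by 1.28 each. Cxcl9 differed by -0.66 and was not called. Inflammatory cytokine genes had no common direction, with 4 higher and 2 lower of 14 and a median of 0.09 that turned below 0 with equal array medians, and Tnf differed by 0.15 and was not called. Acute phase genes split. Saa1, serum amyloid A, read 10.16, 10.28 and 9.24 at 38w and 6.02, 6.14 and 7.37 at 68w (change -3.38). Its near copy Saa2 (-2.70) and the related Saa3 (-2.63) fell with it, as did 8 of 17 genes in all. Lcn2, the iron-siderophore binding lipocalin, went the other way, from 12.58, 12.32 and 12.04 to 13.29, 13.61 and 13.33 (change 1.09), and Orm3 rose by 0.86. In the Ath+HF label the differences were -4.55 for Saa1, -2.56 for Lcn2 and -2.94 for Orm3. Hamp, the iron hormone hepcidin, rose by 1.71, and 5 of 13 iron genes rose in all, or 3 without replicate 2 at 68w.

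Most genes of the matrix that makes up scar tissue rose. Of 17 collagen chains 14 rose and none fell (median 0.59), or 9 with equal array medians. Col1a1, the main chain of scar collagen, read 8.85, 8.24 and 8.88 at 38w and 9.99, 9.64 and 9.38 at 68w (change 1.01, adjusted p = 0.00038), and Col1a2 rose by 0.95. Col6a3, of the collagen VI microfibrils, read 8.04, 7.61 and 8.31 at 38w and 9.67, 9.39 and 9.36 at 68w (change 1.48, adjusted p = 4.2e-06). Of 25 other matrix and crosslinking genes 18 rose and none fell (median 0.76), including the basement membrane nidogen Nid1 (1.57), the lysyl oxidase-like enzyme Loxl1 (1.37) and Sparc (1.33), while fibronectin Fn1 (0.09) and Lox (0.50, adjusted p = 0.069) were not called. Of 21 matrix proteases and inhibitors 12 rose and 1 fell (median 0.60). Timp3, an inhibitor of metalloproteinases, read 8.57, 8.18 and 9.03 at 38w and 10.66, 10.65 and 10.62 at 68w (change 2.05, SE 0.16, adjusted p = 2.9e-07), with the 68w arrays closer together than the 38w ones. Mmp7 (1.79), Mmp2 (1.60) and Timp2 (1.17) rose, and Timp1 differed by 0.60 without passing the test (adjusted p = 0.063).

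Stellate cell and myofibroblast genes rose in 7 cases of 17 and fell in 2 (median 0.32), and without replicate 3 at 68w 4 rose. Pdgfrb, the PDGF receptor of activated stellate cells, read 8.66, 8.13 and 8.87 at 38w and 9.73, 9.7 and 9.69 at 68w (change 1.15, adjusted p = 2.6e-05), and Vim, vimentin, rose by 1.02. Acta2, the smooth muscle actin of myofibroblasts, read 8.32, 7.81 and 8.4 at 38w and 8.93, 8.78 and 9.74 at 68w (change 0.97, adjusted p = 0.015), a call lost without replicate 2 at 38w or replicate 3 at 68w. Desmin, Des, differed by 0.11 and was not called. The 2 genes that fell were Colec10 (-1.74), a collectin of quiescent stellate cells, and Lrat (-0.65), which esterifies retinol for storage there.

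The study turned on TGF-beta signaling in stellate cells and hepatocytes, and of 19 TGF-beta and PDGF genes 13 rose and 3 fell (median 0.48). With equal array medians 11 rose and 3 fell. The ligands Tgfb1, Tgfb2 and Tgfb3 rose by 0.60 to 1.02 and Pdgfb by 1.24, the receptors Tgfbr1 and Tgfbr2 by 0.46 and 0.93, and the signal carrier Smad3 by 0.48, while Smad2 fell by 0.29 and the hepatocyte activin chain Inhbe by 1.72. Ccn2, connective tissue growth factor and a target of the pathway, read 9.16, 8.92 and 8.67 at 38w and 10.95, 10.63 and 10.62 at 68w (change 1.81, adjusted p = 6.5e-06). Of the 35 measured genes that the study names, 20 rose and 2 fell (median 0.47), or 15 and 5 with equal array medians. Among them were Ep300 (0.40), the gene of the coactivator p300, and Nfya (0.35), a subunit of the promoter factor NF-Y. The guanine exchange factor Vav1 (0.96), Akt1 (0.25) and the Notch ligand Jag1 (0.50) were others. The 35 genes were taken from the study of these samples, so their count is no independent evidence of direction. The study reported several of them, such as Pdgfrb and Tgfbr1 by qRT-PCR, as raised by the Ath+HF diet and repressed with BCAA. Those results compared diets at the same age and not ages within a label. By the test of the difference here, 20 of the 35 moved more upward with the supplement and 3 more downward. In the Ath+HF label the medians were -0.21 for collagens and -0.42 for other matrix genes. They were -0.25 for stellate genes and -0.32 for the TGF-beta and PDGF list. In that order, the change was more upward with the supplement for 12, 21, 5 and 12 genes, and more downward for 0, 0, 2 and 2.

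**Figure D4:**
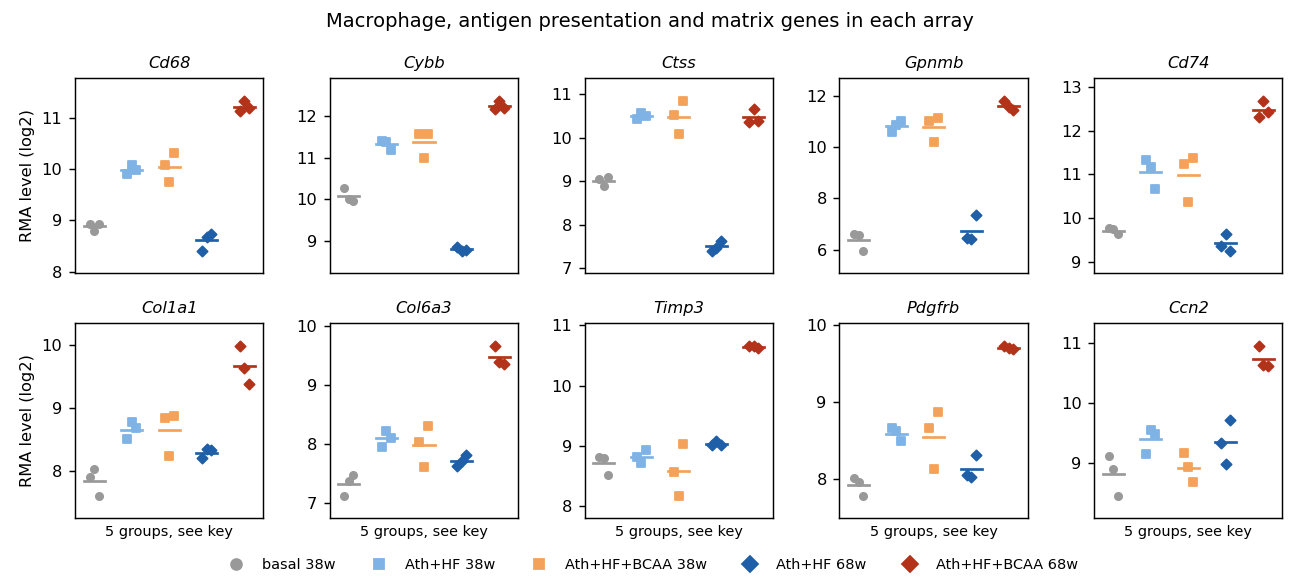
Level of 10 macrophage, matrix and stellate cell genes in all 5 groups; the y axis is the RMA level (log2), each point is an array and each line a group mean, coloured by group. The Ath+HF+BCAA arrays at 68w read 11.14 to 11.33 for Cd68 and 10.62 to 10.66 for Timp3, above the 38w arrays of the same label, while Ctss overlaps between these ages.

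Ductular and tumor-linked genes rose. Of 10 measured cholangiocyte and ductular genes 9 rose and none fell (median 0.76). Cd24a, a surface protein of progenitor and ductular cells, read 8.16, 7.89 and 7.93 at 38w and 9.92, 10.28 and 9.73 at 68w (change 1.98, adjusted p = 8.1e-07). Epcam, the epithelial adhesion molecule, read 6.58, 6.41 and 6.36 at 38w and 7.99, 7.79 and 7.81 at 68w (change 1.41, adjusted p = 2.8e-05). For both genes the arrays were fully separated. Prom1 (1.42) and the bile duct keratins Krt7 (0.77) and Krt19 (0.75) rose, and Sox9, their transcription factor, differed by 0.10 and was not called. Of 14 oncofetal and tumor genes 9 rose and none fell (median 0.92), with Golm1 at 1.11, Cd44 at 1.04 and Ly6d at 2.30. The largest rise, 2.81, was that of Cbr3, which is also on the NRF2 list. The classical markers of liver tumors, alpha-fetoprotein Afp (-0.05) and glypican-3 Gpc3 (0.20), were not called. The samples' labels do not say whether tumor tissue was included.

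Of 23 cell cycle genes 12 rose and 1 fell (median 0.45, against -0.62 in the Ath+HF label). The proliferation antigen Mki67 read 7.67, 7 and 7.45 at 38w and 8.48, 8.94 and 7.96 at 68w (change 1.09, adjusted p = 0.00082), the cyclins Ccnb2 and Ccnd1 rose by 1.10 and 1.14, and the replication clamp Pcna fell by 0.60. Myc differed by 0.70 and was not called (adjusted p = 0.061). Endothelial genes moved in 7 cases of 13, 5 of them upward, or 3 without replicate 1 or 2 at 38w or replicate 1 at 68w and 2 without replicate 3 at 68w.

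Carriers that bring leucine and other neutral amino acids into cells were mostly higher at 68w. Of 14 measured, 8 rose and 1 fell (median 0.53, against -0.14 in the Ath+HF label). Slc43a2, a carrier of large neutral amino acids including leucine, read 8.2, 7.9 and 8.31 at 38w and 9.4, 9.51 and 9.26 at 68w (change 1.25, adjusted p = 1.5e-06). Slc1a4 (1.02), Slc1a5 (0.86), Slc7a8 (0.80) and the heavy chain Slc3a2 (0.70) rose, the light chain Slc7a5 differed by 0.09 and was not called, and Slc38a4 fell by 0.30. In the mTORC1 pathway 5 genes of 18 rose and 3 fell, and the median of 0.15 turned to -0.0032 with equal array medians. Its GTPases moved in opposite directions. Rragd, a Rag GTPase of the amino acid arm, read 7.42, 7.38 and 7.2 at 38w and 9.31, 9.58 and 9.53 at 68w (change 2.14, adjusted p = 1e-08). Rheb, the GTPase that activates the complex, read 9.96, 10.23 and 10.26 at 38w and 8.55, 8.9 and 8.84 at 68w (change -1.39, adjusted p = 9.9e-07), and Rraga fell by 0.98. Neither gene's arrays overlapped. Eif4ebp2, a translation repressor under mTORC1, rose by 0.87, and the kinase Mtor (0.06) and the scaffold Rptor (-0.10) were not called. Of 13 class I PI3K and Vav genes, 7 rose and 2 fell (median 0.29).

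Small RNA probes behaved differently by class. Of 55 small nucleolar and Cajal body RNAs, which guide the modification of ribosomal and spliceosomal RNA, 26 fell and 5 rose (median -0.48). Snora16a read 11.75, 11.94 and 11.66 at 38w and 7.95, 7.94 and 7.91 at 68w (change -3.85, SE 0.20, adjusted p = 6.9e-09), and Rny3, a Y RNA, read 13.15, 13 and 13.3 and then 10.65, 10.53 and 10.53 (change -2.58, SE 0.10). Snord52 (-2.93), Snord49b (-2.86) and Snord33 (-2.21) fell too, and Snord95 rose by 1.15. The falls were present in the Ath+HF label as well, with -4.10 for Snora16a and -1.77 for Rny3 and a class median of -0.38. The labelling for this array is meant for long transcripts, and how far these probes read the mature small RNA was not tested. Of 302 genes with the symbol prefix Mir, nearly all microRNA genes, 56 rose and 59 fell, with a median of 0.01. Among those annotated as microRNAs, 95 had a mean level under 5, where 44 fell and 3 rose (median -0.46). Another 61 had a mean level of 7 or more, where 1 fell and 22 rose (median 0.23).

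Over all genes the dim end was low as well, but the bright end was not high. Of 359 genes with a mean level under 4, 179 were lower at 68w and none higher (median -0.53), while of 4278 with a level from 6 to 7, 1016 were higher and 135 lower (median 0.16). At 10 and above, 856 of 2112 were lower and 325 higher (median -0.19). The dim end moved by -0.15 in the Ath+HF label, so the counts for dim probes are best read against their own bin.

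**Figure D5:**
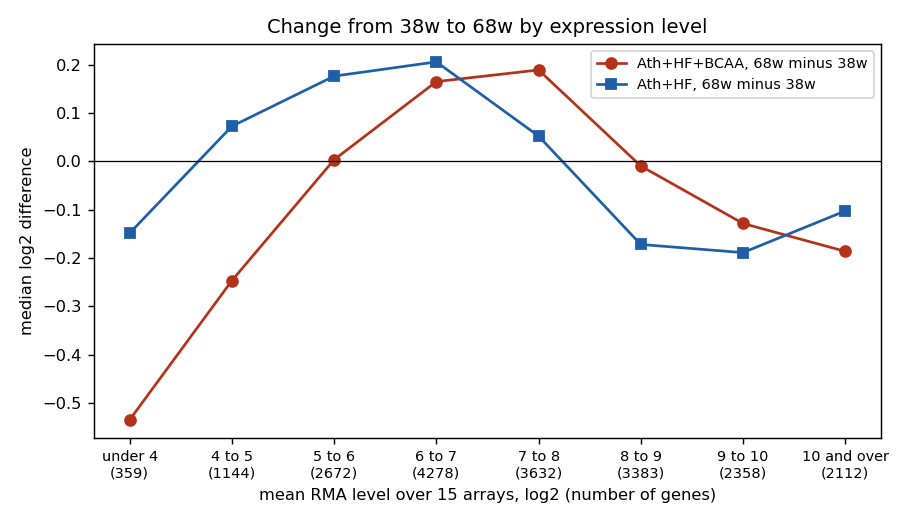
Median change from 38w to 68w by mean level; the x axis gives bins of mean RMA level (log2) with the number of genes in each, the y axis the median log2 difference, in red for the Ath+HF+BCAA label and in blue for the Ath+HF label. The red median is -0.53 under a level of 4, 0.16 from 6 to 7 and -0.19 at 10 and above.

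The microRNAs that share the seed of miR-15 and miR-16, a family known to restrain cell cycle genes, did not all move one way. Mature sequences are from RefSeq on GRCm38.p6, with the seed, bases 2 to 8, in capitals.
mmu-miR-15a-5p: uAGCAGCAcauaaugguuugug
mmu-miR-15b-5p: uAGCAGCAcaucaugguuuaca
mmu-miR-16-5p: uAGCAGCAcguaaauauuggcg
mmu-miR-195a-5p: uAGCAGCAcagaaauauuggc
mmu-miR-497a-5p: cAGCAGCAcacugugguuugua
The probes read the genes and not the mature forms. Mir15a read 8.5, 8.12 and 7.84 at 38w and 9.25, 9.22 and 9.12 at 68w (change 1.05, SE 0.16, adjusted p = 0.00014), and Mir497 read 6.33, 6.23 and 6.21 and then 7.28, 6.93 and 7.02 (change 0.82, SE 0.13, adjusted p = 0.00013). Mir195a, beside Mir497 on chromosome 11, rose by 0.36. Mir16-2 fell by 0.49, from a mean of 5.56 to 5.07. Mir16-1 (0.16), which lies beside Mir15a on chromosome 14, and Mir15b (-0.37, from 4.24 to 3.88) were not called. Mir16-2 and Mir15b were the dimmest of the family measured. Of microRNAs with a mean level under 5, 44 of 95 fell and 3 rose, and from 5 to 7, 14 of 140 fell and 28 rose. In the Ath+HF label the differences were 0.84 for Mir497 and -0.21 for Mir15a, and that of Mir15a differed between the diets (difference 1.26, adjusted p = 0.001). The largest increases of this class were in Mir122 (1.54) and Mir145a (1.39), with Mirt2, a long noncoding RNA that shares the symbol prefix, at 1.25.

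The changes of the Ath+HF+BCAA and Ath+HF labels share no array. Of the genes that rose in the Ath+HF+BCAA label, 1228 (30.1%) were also called higher at 68w in the Ath+HF label and 699 (17.1%) lower there, where 17.6% of all genes tested were higher and 19.99% lower, and these 1228 were 34.9% of the 3518 genes that rose in it. Of those that fell, 1725 (47.2%) also fell in the Ath+HF label, 43.3% of the 3985 that fell in it, and 187 (5.12%) rose there. The complement and mitochondrial ribosomal lists fell in both labels, with medians of -0.49 and -0.42 here and -0.57 and -0.27 there.

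Gene by gene, the widest differences were of 2 kinds. In the first, the Ath+HF label was nearly flat and the supplemented label moved. Elovl3 read 12.77, 12.85 and 12.67 at 38w and 12.54, 12.6 and 12.51 at 68w in the Ath+HF label (difference between the diets -6.42, adjusted p = 4e-10), and Abcc4 read 7.61, 7.39 and 7.07 and then 7.3, 7.23 and 7.08 (difference 3.03). In the second, both labels moved in opposite directions, or mainly the Ath+HF label moved. Cyp8b1 in the Ath+HF label read 9.08, 9.48 and 7.92 at 38w and 12.29, 12.16 and 12.65 at 68w, a change of 3.54 against -3.27 (difference -6.82, adjusted p = 3.4e-06). Gpnmb there read 10.59, 10.88 and 11.03 at 38w and 6.46, 6.41 and 7.36 at 68w (difference 4.92, adjusted p = 6.2e-07). Ctss behaved likewise, at 10.43, 10.58 and 10.5 and then 7.4, 7.46 and 7.63, against no called change here. The direction of these differences between the diets turns if the 68w labels were exchanged.

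With the 68w labels exchanged, the comparison of the supplemented diet over time would be that of the arrays labelled Ath+HF at 68w with those labelled Ath+HF+BCAA at 38w. That comparison called 4627 genes higher (23.2%) and 4342 lower (21.8%), with a median of 0.06 over all genes. It shares the 38w arrays with the main one, so the values are given side by side. For macrophage genes the main comparison had 11 higher and none lower of 19 and the exchanged one 1 higher and 18 lower, and the medians were 0.45 and -1.33. For fatty acid oxidation, none was higher and 19 lower of 22 as labelled, and 13 were higher and none lower when exchanged. For MHC class II the counts were 8 higher and none lower as labelled and none higher and 5 lower when exchanged, and for collagens 14 higher and none lower as labelled and 3 higher and 2 lower when exchanged. Male-biased genes fell in 16 of 18 cases as labelled and in 7 when exchanged, clock output genes rose in 9 of 11 and in 6, and BCAA catabolism genes fell in 19 of 23 and in 12, with none higher and 2 higher. Correlations over genes of the Ath+HF+BCAA arrays at 68w were 0.940 to 0.960 with the Ath+HF arrays at 68w and 0.959 to 0.972 with the Ath+HF arrays at 38w. Which labelling is right was not tested and cannot be told from the deposited values.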

How the data were processed

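Liver RNA was hybridised to GeneChip Mouse Gene 1.0 ST arrays. The authors used Affymetrix Expression Console (version: not given in the sources used here) for RMA summarisation and deposited log2 values for 35556 transcript clusters. Of these, 21789 carried 1 gene symbol, 1621 several and 12146 none, and only the first were used. Where a gene had several clusters (999 genes), the one brightest on average across the 15 arrays was kept, which left 19938 genes. The platform annotation can be old, and symbols were checked through Entrez IDs for 21698 clusters.

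One linear model with a coefficient for each of the 5 groups was fitted to all 15 arrays in limma 3.58.1 under R 4.3.3, with 10 residual degrees of freedom, moderated tests (two-sided) and Benjamini-Hochberg adjustment over all 19938 genes. The study's own test was an analysis of variance over all groups. Precision is limited by 3 arrays per group. The script was tested on simulated data. Promoter and microRNA sequences came from RefSeq.

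The comparison and the 57 gene lists (890 of 990 genes measured) were chosen with earlier results of these data known, so lists are described by counts and medians beside those of all genes, without a test. Genes were named by rule: the 15 largest called changes in each direction with arrays that did not overlap, leaving out predicted, small RNA and olfactory receptor genes, the 5 largest small RNAs in each direction, from each list its first 2 genes and the 4 called with the smallest p, the 10 largest differences between the diets in each direction, and genes the study names. Some were left out for length, without regard to direction. Alternatives were other scalings, filters, fits and thresholds, and leaving out each array. List counts under each alternative were added after seeing the data.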

Additional observations from a re-analysis of the deposited data

Results flagged for a closer look

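The change from 38w to 68w differed between the Ath+HF+BCAA and Ath+HF labels by the test of the difference itself for 2572 genes more upward and 1530 more downward with the supplement, and for the genes below. Values are differences of the 2 log2 changes, positive where the supplemented label moved more upward, and all passed the adjusted threshold in the limma fit. All turn in sign if the 68w labels were exchanged and the 38w groups were alike.

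Genes among the largest increases of the supplemented label were Apela (3.79), Ciart (3.73), Elovl7 (4.20), Abcc4 (3.03), Cbr3 (3.24), Gpx2 (2.70), Usp2 (2.94), Dbp (2.45), Coro6 (2.44), Gipc2 (2.46), Slc1a1 (2.27), Cxcl10 (2.20), Oasl1 (1.91), Per1 (1.40) and D17H6S56E-5 (4.01), the last with a change of 2.65 in the supplemented label and -1.36 in the Ath+HF label. They hold circadian repressors and output factors, antioxidant enzymes and interferon-induced genes.

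Genes among the largest decreases were Elovl3 (-6.42), Slco1a1 (-5.97), Sult2a8 (-5.38), Hsd3b5 (-3.53), Mup3 (-3.49) and Mup21 (-3.24), several of them male-biased, the P450 genes Cyp8b1 (-6.82), Cyp4a14 (-4.75), Cyp4a10 (-3.53) and Cyp2c54 (-2.79), and Paqr9 (-4.18), Serpina4-ps1 (-3.66) and Susd4 (-2.87). For Cyp8b1 the change was 3.54 in the Ath+HF label and -3.27 with the supplement.

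Further differences were wide because the Ath+HF label moved. Gpnmb (4.92), the lysosomal proton pump subunit Atp6v0d2 (3.93) and Mmp12 (3.56), which lipid-laden macrophages express, changed by -4.09, -3.19 and -3.19 there. The acute phase protein Orm3 (3.80), Lcn2 (3.66) and the caspase Casp12 (3.56) changed by -2.94, -2.56 and -1.99 there and by 0.86, 1.09 and 1.57 with the supplement. The monoglyceride lipase Mgll (-3.53) changed by 1.60 there and by -1.93 with the supplement.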

How the results depend on the processing

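Precision rests on 3 arrays per group. Of 319 named genes, 38 crossed the threshold under at least one of 14 alternatives, and none of the named genes changed sign while called. For the Ath+HF+BCAA comparison, genes higher at 68w numbered 2272 with array medians set equal and 1532 within the study's limits of fold and P. The analysis of variance gave 1801, run here as t tests on the spread pooled over all groups. Their p was adjusted by Bonferroni over pairs of groups and then by Benjamini-Hochberg over genes, a step the study's methods do not name. Genes lower numbered 5659 with medians set equal, 1811 by analysis of variance and 1642 within the study's limits. Over all 35556 transcript clusters 5638 were lower, a share of 15.9% against 18.3% of genes in the main fit. Leaving out single arrays gave 3122 to 3694 higher and 2807 to 3397 lower. For the difference between the diets, leaving out single arrays gave 2079 to 2552 and 1025 to 1592, the study's limits gave 953 lower, and analysis of variance was not run. With the 68w labels exchanged, genes higher numbered 7777 over all clusters (21.9% of 35556) and 3084 without dim genes (24.3% of 12686). The share in the main fit of that comparison was 23.2%. Genes higher numbered 2133 with medians set equal, 3073 after quantile normalization, 1480 by analysis of variance and 1167 within the study's limits. Genes lower numbered 2270 and 1982 by the last 2. Leaving out single arrays gave 3554 to 4123 higher and 3659 to 4118 lower. Of the 57 list medians 31 moved beyond the spread between arrays in some setting, and 10 turned sign in some setting, 2 of them from a value above that spread: Kupffer cell at -0.10 without replicate 2 at 68w (range -0.10 to 0.46 over single arrays left out), and the mTORC1 pathway at -0.0032 with medians set equal. The cause was not tested, except that fewer arrays leave fewer calls. Array replicate numbers do not pair the samples (correlations -0.07, -0.05 and -0.05), and with the number as a replicate block the counts were 4035 and 3636, 2512 and 1485 for the difference between the diets, and 4597 and 4312 with labels exchanged, with Plin1 the only named gene to lose its call.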
